A study of Homo sapiens with 3 samples.

Results

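This account covers 39 genes of the centromere, the kinetochore and the spindle checkpoint in the human colon cancer line DLD1. They were taken as the genes whose symbol in the array's annotation is on a list of such genes. The annotation gave 22465 genes a probe set of their own, and 36 of the 39 were among them. RNA was measured by biotin labelling on 3 whole-transcript arrays, 1 each for cells given a control siRNA, siH19-1 or siH19-2. All 3 groups were the same cell line and, per the labels' protocols, received 50 nM siRNA with a lipid reagent, and 500 ng of RNA was labelled per array. Transfection lasted 48 hours by the protocol, whereas the design text of the series has 24 hours, and the sources used here do not settle which applies. The targets of siH19-1 and siH19-2 are the long noncoding RNA H19. The sequences of these siRNAs were not used here.

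With 1 array per condition there were no replicates, so each difference is between single arrays, has no error and was not tested. Values are log2 signals as deposited, and a gene is said to rise or fall only where its signal differed at least 1.5-fold, which is 0.585 on the log2 scale. Both siRNA arrays were set against the same control array, so a high or low reading on that array enters both differences. Array signals of different genes depend on their probes, so levels were not compared between genes.

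Of the 39 genes, 36 had a probe set annotated to that gene alone, and 3 (CENPP, PMF1 and BUB1B) had one shared with other genes. Among the 36, 35 reached a mean log2 signal of 5, the minimum for a gene to be compared, and CENPB did not. CENPT lay just inside this minimum, with a mean of 5.03, and CENPB just outside, with 4.69. Each of the 36 had 1 probe set, so no second probe set of the same gene could be set beside it.

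The kinetochore is the protein assembly on which spindle microtubules pull at each chromosome. Its inner layer, the constitutive centromere-associated network, sits on chromatin that carries CENPA, a histone H3 variant. Its outer layer grips microtubules through the NDC80 complex and, while a chromosome is unattached, recruits checkpoint proteins that hold back anaphase. Colon cancer lines such as DLD1 divide in culture, and many of these genes are transcribed mainly in cells approaching mitosis. A lower signal in a bulk sample can come from fewer cells in that phase or from less RNA per cell, and these cannot be told apart here.

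The target itself was measured by a probe set that H19 shares with MIR675, the microRNA gene it hosts. This probe set had log2 signals of 7.88 with control, 7.74 with siH19-1 and 7.37 with siH19-2, which are 90.8% and 70.2% of control and under 1.5-fold, so depletion of the target is not shown by this probe set. Array medians over all probe sets were 3.47 to 3.57. Of 10 colon epithelial markers 6 passed the signal minimum, with KRT8 brightest at a mean of 15.45, and KRT20, VIL1, CEACAM5 and CEACAM6 did not. The summed signal of the epithelial markers was 16.80, 16.91 and 16.40 on a log2 scale with control, siH19-1 and siH19-2. Fibroblast (5 measured), leukocyte (4) and endothelial (4) markers all lay under the minimum, with summed log2 signals between 4.92 and 5.53 on every array.

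Of the 35 compared genes, 33 stayed under 1.5-fold with siH19-1 and 31 with siH19-2. With siH19-1, 1 of them rose (CENPQ) and 1 fell (SPC24), while 1.58% of the 9630 genes compared across the array rose and 2.63% fell, 4.21% together. With siH19-2, 1 rose (again CENPQ) and 3 fell (NSL1, ZWINT and MAD2L1), against 2.94% of all compared genes that rose and 8.95% that fell, 11.9% together. The shares of the 35 were 2.86% in each direction with siH19-1, and 2.86% higher and 8.57% lower with siH19-2. These shares lay near those of all compared genes.

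The median difference from control of the 35 genes was -0.07 with siH19-1, beside -0.06 for all compared genes. With siH19-2 it was -0.18, beside -0.07. Differences within 0.2 log2 units of control were found for 23 of the 35 with siH19-1 (65.7%) and for 17 with siH19-2 (48.6%), beside 64.4% and 50.7% of all compared genes. Below control lay 27 of the 35 with siH19-1 (77.1%) and 25 with siH19-2 (71.4%), beside 61.9% and 58.4% of all compared genes. The list thus lay below control more often than the array did, by small differences, and its shares past 1.5-fold were near those of the array. The lean depended on the reference. Below the median of all compared genes lay 18 of the 35 with siH19-1 and 20 with siH19-2, beside 49.3% and 48.6% of all compared genes. With siH19-1 little of the lean was then left. With no signal minimum it remained: 28 of 36 genes lay below the median of all genes with siH19-1 and 27 with siH19-2. Of all 22465 genes, 49.0% and 47.9% did.

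**Figure D1:**
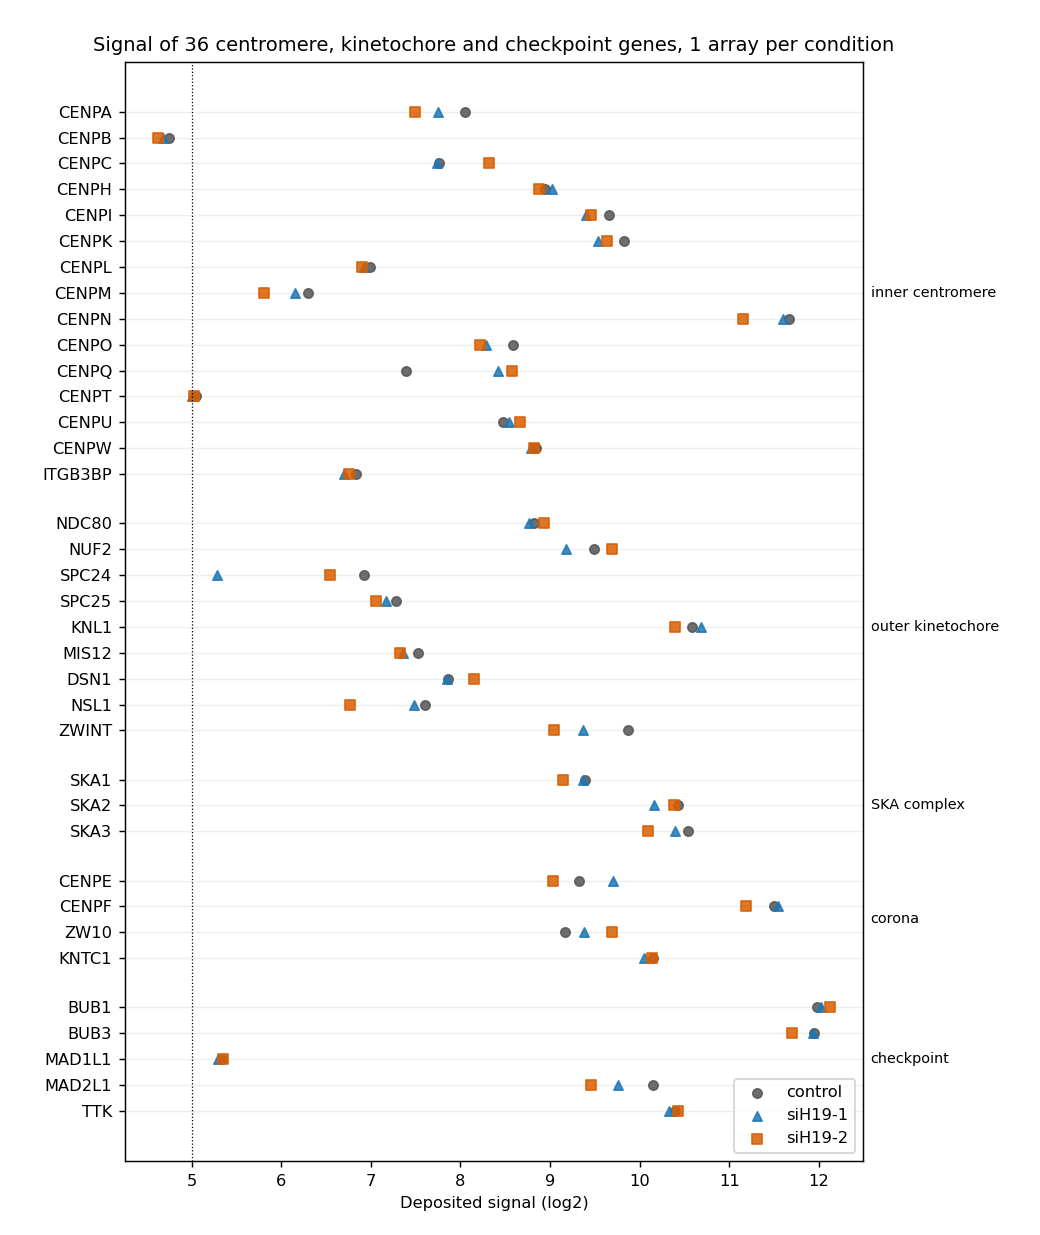
Deposited log2 signal (x axis) of the 36 genes with a probe set of their own (y axis, grouped by role), with 1 point for each of the 3 arrays; the dotted line is the signal minimum of 5. The control point of CENPQ, at 7.39, lies apart from both siRNA points, and the siH19-1 point of SPC24, at 5.28, lies apart from the other points of that gene.

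The promoters of the 5 genes that passed 1.5-fold with either siRNA are shown because these genes carry the differences described here. The sequences are from RefSeq (GRCh38.p14), 250 bases before to 50 bases after the gene's start, read 5′ to 3′ on the gene's strand; where the table has several windows for a gene, the first is printed. Capitals mark matches on either strand to the motifs searched. These were the cell cycle gene homology region, or CHR (TTTGAA or TTTAAA), the CCAAT box (CCAAT), and E2F-type sites (TTCCCGCC, TTTGGCGC or TTTCGCGC).
CENPQ (chr6:49463120-49463419, plus strand): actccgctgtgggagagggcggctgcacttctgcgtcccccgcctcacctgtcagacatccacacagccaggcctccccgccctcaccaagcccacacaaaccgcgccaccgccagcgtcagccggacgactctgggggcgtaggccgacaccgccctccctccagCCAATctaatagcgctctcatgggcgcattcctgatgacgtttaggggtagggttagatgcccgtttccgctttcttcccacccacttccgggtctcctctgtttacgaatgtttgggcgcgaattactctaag
SPC24 (chr19:11155733-11156032, minus strand): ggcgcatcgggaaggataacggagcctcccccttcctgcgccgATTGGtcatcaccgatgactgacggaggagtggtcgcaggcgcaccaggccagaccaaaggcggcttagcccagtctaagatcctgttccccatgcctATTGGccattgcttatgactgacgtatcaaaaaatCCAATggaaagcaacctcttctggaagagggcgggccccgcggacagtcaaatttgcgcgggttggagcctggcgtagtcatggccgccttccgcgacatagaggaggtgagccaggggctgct
NSL1 (chr1:212791728-212792027, minus strand): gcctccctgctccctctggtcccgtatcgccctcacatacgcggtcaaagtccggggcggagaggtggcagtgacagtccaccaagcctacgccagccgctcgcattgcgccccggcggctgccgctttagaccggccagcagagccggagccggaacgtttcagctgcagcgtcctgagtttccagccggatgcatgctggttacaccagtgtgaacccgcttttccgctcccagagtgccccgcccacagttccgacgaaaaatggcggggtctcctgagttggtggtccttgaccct
ZWINT (chr10:56361210-56361509, minus strand): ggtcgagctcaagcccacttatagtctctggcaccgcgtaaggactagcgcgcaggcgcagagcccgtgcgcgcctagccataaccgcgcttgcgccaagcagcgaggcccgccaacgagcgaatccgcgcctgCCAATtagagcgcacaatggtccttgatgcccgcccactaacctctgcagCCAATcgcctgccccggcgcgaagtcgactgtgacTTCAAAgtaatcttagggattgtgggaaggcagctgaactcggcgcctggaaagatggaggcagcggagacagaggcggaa
MAD2L1 (chr4:120066799-120067098, minus strand): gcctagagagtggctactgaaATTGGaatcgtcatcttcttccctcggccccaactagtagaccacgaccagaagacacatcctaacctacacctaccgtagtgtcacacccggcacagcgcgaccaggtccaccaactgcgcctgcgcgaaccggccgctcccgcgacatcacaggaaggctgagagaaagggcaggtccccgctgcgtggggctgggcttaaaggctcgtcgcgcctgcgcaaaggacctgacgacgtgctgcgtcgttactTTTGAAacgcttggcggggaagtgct

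The CHR is known as an element through which the MuvB core complexes act on mitotic genes, and CCAAT boxes often lie near it. A CHR match was found in 2 of the 5 windows, in ZWINT at position -31 from the start and in MAD2L1 at position 25. CCAAT matches were found in 4 of the 5, 3 of them in SPC24, and E2F-type matches in 0 of the 5. NSL1 held none of the motifs.

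Over all 36 windows of the 32 genes that the RefSeq table lists, a CHR match was present in 44.4%, beside 24.0% of the table's 35116 windows of the same length. It was present in 4 of 15 inner centromere windows (26.7%) and in 12 of 21 windows of the outer kinetochore and checkpoint (57.1%). A CCAAT match was present in 55.6% of the genes' windows and in 34.6% of all windows. E2F-type matches were present in 22.2% and 4.24%. No chance test was made of these shares, and a match is only a run of letters. CENPH, CENPL, CENPM, KNL1, KNTC1, BUB3 and TTK had no entry in the table.

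CENPQ belongs to the inner network and was the one gene of the list that rose on the deposited scale. It encodes a subunit of the CENP-O-P-Q-U-R complex, an outlying arm of that network that docks the kinase PLK1 through CENPU. The log2 signal of CENPQ (TC06000640.hg.1) was 7.39 on the control array, 8.42 with siH19-1 and 8.58 with siH19-2. Both siRNA arrays read higher than control and differed from each other by 0.16. The differences from control were 1.03 and 1.19, or 2.04-fold and 2.28-fold. Of the 9630 compared genes, 25 rose more with siH19-1 and 23 with siH19-2. Among compared genes within 0.5 log2 units of its signal, differences had SDs of 0.307 and 0.428. A low reading of CENPQ on the single control array and a rise with both siRNAs cannot be told apart.

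The partners of CENPQ stayed under 1.5-fold. CENPU had log2 signals of 8.47 with control, 8.54 with siH19-1 and 8.67 with siH19-2. CENPO had 8.59, 8.29 and 8.22 on the same arrays. ITGB3BP, which encodes CENP-R, had 6.84, 6.70 and 6.76. Differences of these 3 genes from control ran from -0.30 to 0.07 with siH19-1 and from -0.37 to 0.20 with siH19-2. The probe set annotated to both CENPP and LOC100128361 read 5.76, 5.62 and 5.45, differences of -0.14 and -0.31, and cannot be assigned to either gene.

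The centromeric histone and its readers stayed under 1.5-fold with both siRNAs. CENPA had log2 signals of 8.05 with control, 7.75 with siH19-1 and 7.49 with siH19-2. Its differences of -0.30 and -0.56 did not reach 1.5-fold, the second by little. CENPC, which ties CENPA nucleosomes to the outer kinetochore, had 7.76, 7.74 and 8.32. The siH19-2 array alone was high for CENPC, by 0.56 over control and 0.58 over siH19-1. CENPN, which with CENPL reads the CENPA nucleosome, had 11.67, 11.60 and 11.15. CENPL had 6.99, 6.92 and 6.90. The difference with siH19-2 was -0.52 for CENPN, where compared genes of like signal had an SD of 0.566, and -0.09 for CENPL; both were under 1.5-fold.

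The bridging complex of CENPH, CENPI, CENPK and CENPM, which joins the CENPC and CENPT branches, stayed under 1.5-fold throughout. Its differences ran from -0.28 (CENPK) to 0.08 (CENPH) with siH19-1 and from -0.49 (CENPM) to -0.06 (CENPH) with siH19-2. CENPI was at -0.26 and -0.20. CENPM had log2 signals of 6.30 with control, 6.15 with siH19-1 and 5.81 with siH19-2. The histone-fold partners CENPT and CENPW, which recruit NDC80 complexes, were level: each was at -0.05 with siH19-1 and -0.02 with siH19-2. CENPB, which binds a DNA box in alpha satellite repeats, was dim, with 4.75, 4.68 and 4.63, and was not compared.

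SPC24 fell with siH19-1. It encodes 1 of the 4 subunits of the NDC80 complex, at the end that attaches to the inner kinetochore. The log2 signal of SPC24 (TC19001177.hg.1) was 6.93 with control, 5.28 with siH19-1 and 6.54 with siH19-2. The siH19-1 array alone was low, near the signal minimum. The difference from control was -1.65 with siH19-1, a 3.14-fold lower signal, and -0.39 with siH19-2. With siH19-1, 10 of the 9630 compared genes had a deeper decrease, and the SD among compared genes of like signal was 0.231. Set directly against siH19-1, with no use of the control array, siH19-2 read 1.26 higher. In that direction 20 compared genes had a larger difference. The differences of -1.65 and 1.26 both use the single siH19-1 reading of SPC24. A stray low reading on that array and a fall with siH19-1 cannot be told apart.

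The other NDC80 subunits stayed under 1.5-fold. SPC25, the direct partner of SPC24, had log2 signals of 7.28 with control, 7.17 with siH19-1 and 7.06 with siH19-2. NDC80, the subunit that binds microtubules, had 8.82, 8.77 and 8.93. NUF2, which pairs with NDC80, had 9.49, 9.18 and 9.69. The 3 genes ranged from -0.31 to -0.05 with siH19-1 and from -0.22 to 0.20 with siH19-2, so SPC24 stood apart from the rest of its complex in the siH19-1 array.

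NSL1 fell with siH19-2. It encodes a subunit of the MIS12 complex, the platform between the inner network and NDC80. The log2 signal of NSL1 (TC01003810.hg.1) was 7.61 with control, 7.48 with siH19-1 and 6.77 with siH19-2. The siH19-2 array alone was low, with a difference of -0.84 from control (55.9% of its signal) and of -0.71 from siH19-1. The SD of the siH19-2 difference among compared genes of like signal was 0.373. MIS12 had 7.53, 7.36 and 7.33 on the same arrays, and DSN1, the subunit that AURKB phosphorylates, had 7.86, 7.85 and 8.15. With siH19-2 MIS12 was at -0.20 and DSN1 at 0.29, both under 1.5-fold. The probe set annotated to PMF1, PMF1-BGLAP and BGLAP read 5.94, 5.94 and 6.10 and cannot be assigned to 1 gene.

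ZWINT fell with siH19-2. It binds KNL1 and helps to bring the corona to the kinetochore. The log2 signal of ZWINT (TC10001309.hg.1) was 9.87 with control, 9.37 with siH19-1 and 9.05 with siH19-2. Both siRNA arrays read lower than control. The difference was -0.50 with siH19-1, which is under 1.5-fold, and -0.82 with siH19-2, or 56.6% of control. The SDs among compared genes of like signal were 0.320 and 0.491. KNL1, on which BUB1 and BUB3 assemble, had 10.58, 10.69 and 10.39, differences of 0.11 and -0.19.

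MAD2L1 fell with siH19-2. It encodes MAD2, the protein that captures CDC20 while the checkpoint is active. The log2 signal of MAD2L1 (TC04001507.hg.1) was 10.15 with control, 9.76 with siH19-1 and 9.46 with siH19-2. Both siRNA arrays were again below control, with differences of -0.39 (76.3% of control) and -0.69 (62.0%). The SD of the siH19-2 difference among compared genes of like signal was 0.476. MAD1L1, the MAD1 partner that holds MAD2 at kinetochores, was level at 5.34, 5.30 and 5.35, at a dim signal.

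The kinases and adaptors of the checkpoint were close to control. BUB1, a kinase that marks the inner centromere for shugoshin, had log2 signals of 11.98 with control, 12.02 with siH19-1 and 12.12 with siH19-2. BUB3, the adaptor that brings BUB1 to KNL1, had 11.95, 11.93 and 11.70. TTK, the MPS1 kinase at the top of the checkpoint, had 10.39, 10.33 and 10.43. Differences of these 3 genes from control ran from -0.06 to 0.04 with siH19-1 and from -0.25 to 0.14 with siH19-2. The probe set annotated to both PAK6 and BUB1B read 9.25, 8.93 and 8.33. Its difference with siH19-2, -0.92, passed 1.5-fold, but it cannot be assigned to BUB1B, which encodes the checkpoint protein BUBR1, rather than to PAK6.

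Genes of the corona, the outermost layer of unattached kinetochores, did not pass 1.5-fold against control. CENPE, a kinesin that carries chromosomes to the spindle equator, had log2 signals of 9.32 with control, 9.70 with siH19-1 and 9.03 with siH19-2. Control lay between the siRNAs, which differed by -0.67 (siH19-2 minus siH19-1), past 1.5-fold. ZW10, a part of the complex that recruits dynein, had 9.17, 9.38 and 9.69. Its partner KNTC1, which encodes ROD, had 10.15, 10.05 and 10.14. ZW10 was thus above control with both siRNAs, by 0.21 and 0.52, and KNTC1 was level. CENPF, a large coiled-coil protein of the corona, was at 0.04 and -0.31. The SKA complex, which stabilises attachments at microtubule ends, was under 1.5-fold too: SKA1 was at -0.02 and -0.24, SKA2 at -0.27 and -0.05, and SKA3 at -0.14 and -0.45.

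**Figure D2:**
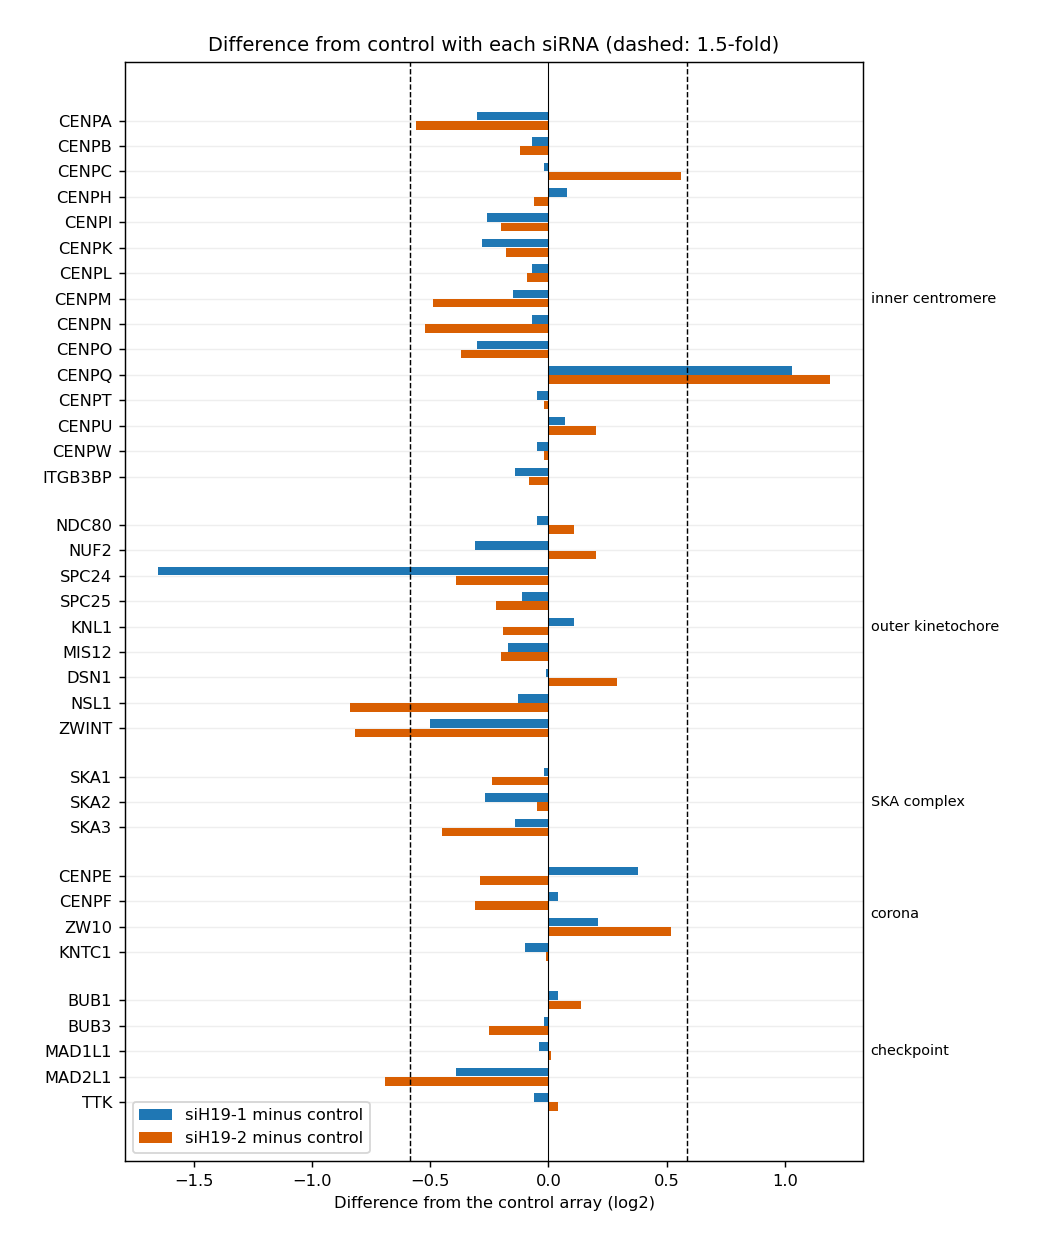
Difference of each siRNA array from the control array (x axis, log2) for the 36 genes with a probe set of their own (y axis, grouped by role); bars start at 0 and dashed lines mark 1.5-fold. CENPQ passes the upper line with both siRNAs, SPC24 the lower line with siH19-1 at -1.65, and NSL1, ZWINT and MAD2L1 the lower line with siH19-2.

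The inner network and the outer kinetochore with checkpoint were set side by side. With siH19-1 their medians were -0.07 (14 inner genes) and -0.06 (21 outer genes). With siH19-2 they were -0.08 and -0.20. All 4 falls past 1.5-fold, 1 with siH19-1 and 3 with siH19-2, were in outer genes on the deposited scale, whereas with each array centred on its median the inner genes CENPA, CENPM and CENPN fell with siH19-2 too. The rises were in the inner gene CENPQ, joined with siH19-2 by CENPC and the outer gene ZW10 after quantile normalization. The outer genes that fell with siH19-2 made up 14.3% of their 21, beside 8.95% of all compared genes. With siH19-1 the share was 4.76% beside 2.63%, which is 1 gene. The inner median minus the outer median was -0.01 with siH19-1 and 0.12 with siH19-2, and no test of this difference was possible.

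Set directly against each other, without the control array, siH19-2 read higher than siH19-1 for 1 of the 35 genes (SPC24) and lower for 2 (NSL1 and CENPE). These are 2.86% and 5.71% of the 35, and of all compared genes 2.51% were higher and 5.7% lower, 8.21% together, so the shares were near each other. The median of the 35 was 0.03, beside 0.00 for all compared genes. CENPC was just short of 1.5-fold, at 0.58, and NUF2 was at 0.51.

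Other genes of the same pathway were taken from a list of 37 genes for centromere loading, the chromosomal passenger complex, cohesion protection, checkpoint control and kinetochore accessories, of which 33 were compared. With siH19-1, 2 of the 33 fell: BIRC5, which encodes survivin of the passenger complex (-0.88, and -0.43 with siH19-2), and CENPX, a histone-fold partner of the CENPT branch (-0.62 and -0.55). With siH19-2, 2 fell: CLIP1, a microtubule plus-end protein (-0.70, and -0.20 with siH19-1), and KNSTRN, which localises to the spindle and kinetochore (-0.66 and -0.54). The falls were 6.06% of the 33 with each siRNA, beside 2.63% of all compared genes with siH19-1 and 8.95% with siH19-2. On the deposited scale 0 of the 33 rose with either siRNA, beside 1.58% and 2.94% of all compared genes. Their medians were -0.24 and -0.40, lower than those of the 35 genes described above, and 28 of 33 lay below control with siH19-1 and 29 with siH19-2 (61.9% and 58.4% of all compared genes did).

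ZWILCH, the third subunit of the complex of ZW10 and ROD, had log2 signals of 12.05 with control, 12.31 with siH19-1 and 11.58 with siH19-2, named here after its values were seen. Like CENPE, it was highest with siH19-1 and lowest with siH19-2, a gap of -0.73. Its partners did not share this order: siH19-2 minus siH19-1 was 0.31 for ZW10 and 0.09 for KNTC1. Of the 33 compared pathway genes, ZWILCH alone was lower past 1.5-fold in this comparison (3.03%), beside 5.7% of all compared genes. HJURP, the chaperone that loads CENPA, was at -0.28 and -0.29, and MIS18A, which prepares that loading, was at -0.43 and -0.56; these were also named after their values were seen. HJURP, MIS18A and CENPA (-0.30 and -0.56) did not reach 1.5-fold. A value below control was common on the pathway list, for 84.8% of its compared genes with siH19-1 and 87.9% with siH19-2.

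As a setting for these values, 2 other cell cycle lists were read in the same way. For mitotic cyclins and kinases (16 genes) the median was -0.20 with siH19-1 and -0.29 with siH19-2, with 1 and 3 lower past 1.5-fold (6.25% and 18.8%). The second list held MCM helicase and GINS genes together with MCM10 and CDC45, which all act in DNA replication. It had medians of -0.49 and -0.72 (11 genes), with 5 and 6 lower (45.5% and 54.5%). MCM10 and CDC45 were among the lower genes with both siRNAs. Of all compared genes, 2.63% and 8.95% were lower past 1.5-fold. The medians of the 35 centromere, kinetochore and checkpoint genes, -0.07 and -0.18, were nearer to those of all compared genes than the medians of either list. PLK1 and AURKB are on both the pathway list and the mitotic list. No test of these differences between lists was possible with 1 array per condition, and genes of a list are not replicates.

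**Figure D3:**
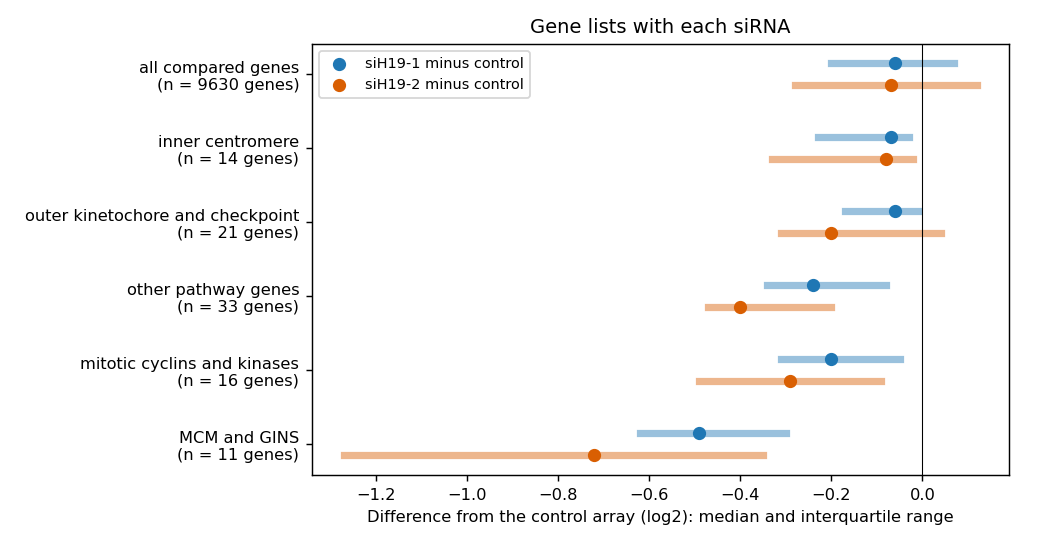
Median difference from the control array (points, log2, x axis) and interquartile range of the genes (bars) for each gene list (y axis) and siRNA. The inner centromere genes lie close to all compared genes (medians -0.07 and -0.08). The MCM and GINS list, which also holds MCM10 and CDC45, lies lowest (-0.49 and -0.72).

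Several of these genes start head to head with a neighbour, within 1000 bases on the opposite strand in RefSeq's GRCh38.p14 promoter table. Such a neighbour was listed for 18 genes, and in 8 pairs both genes were compared. CENPQ starts 117 bases from MMUT, which encodes the mitochondrial methylmalonyl-CoA mutase. MMUT had log2 signals of 7.87 with control, 7.88 with siH19-1 and 7.72 with siH19-2, differences of 0.01 and -0.15. NSL1 starts 117 bases from TATDN3, which was at -0.06 and -0.15. In both pairs the neighbour stayed near control where the kinetochore gene passed 1.5-fold. The reverse was also seen. PPWD1, the neighbour of CENPK, rose with siH19-2 (0.80), and PRR11, the neighbour of SKA2, fell (-0.60), just past 1.5-fold. CENPK (-0.18) and SKA2 (-0.05) stayed under 1.5-fold. CMC2 (-0.60) and its neighbour CENPN (-0.52) were both lower with siH19-2, on either side of the threshold by little. DERL2, the neighbour of MIS12, fell with siH19-1 (-0.64). Among the 8 pairs, 1 neighbour passed 1.5-fold with siH19-1 and 3 with siH19-2. In 0 of the 8 pairs did both genes pass it in 1 comparison. Of all compared genes, 4.21% and 11.9% passed, and 8 pairs are too few to compare shares.

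The scaling of the arrays moved genes that lay close to 1.5-fold. With each array centred on its median, CENPA (-0.66), CENPM (-0.59) and CENPN (-0.62) joined the genes that fell with siH19-2. The share of all compared genes that fell with siH19-2 was then 12.4%, beside 8.95% as deposited. After quantile normalization CENPC (0.62) and ZW10 (0.62) joined CENPQ above 1.5-fold with siH19-2, and after cyclic loess CENPC did (0.60). Of all compared genes, 3.57% and 3.29% rose with siH19-2 under these scalings, beside 2.94% as deposited. CENPQ with both siRNAs, SPC24 with siH19-1, and NSL1, ZWINT and MAD2L1 with siH19-2 passed 1.5-fold under each of these 3 scalings. The value nearest to the threshold among them was MAD2L1 after quantile normalization, at -0.60.

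**Figure D4:**
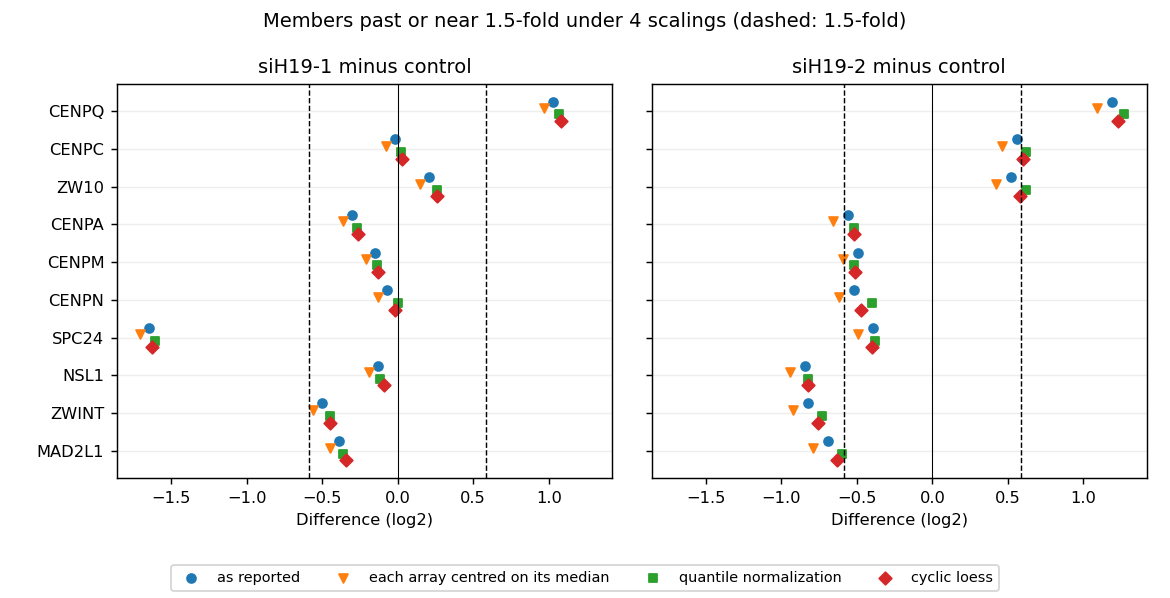
Difference from the control array (x axis, log2) of 10 genes past or near 1.5-fold (y axis), as deposited and under 3 other scalings (marker shapes), with siH19-1 on the left and siH19-2 on the right; dashed lines mark 1.5-fold. CENPQ stays between 0.97 and 1.27 over both panels, while CENPA, CENPM, CENPN, CENPC and ZW10 cross a line under some scaling with siH19-2.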

How the data were processed

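RNA from DLD1 cells was measured on 3 whole-transcript arrays, 1 per condition. The authors deposited log2 signals made with Affymetrix Expression Console and RMA, per the submitters' processing notes, which name no versions. Between 315 and 337 probe sets per array exceeded a log2 signal of 16, more than a 16-bit scanner can read, so a transformation beyond plain RMA is possible and a fold is one on the deposited scale. The number of arrays limits the precision, and detection calls were not used.

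The platform annotation gave 1 symbol to 23781 of 67528 probe sets, several to 1543 and none to 42204. RefSeq symbols for the Entrez identifiers were the same as the platform's for all 39 genes. The probe set with the highest mean over the 3 arrays stood for a gene, and the 9630 genes whose mean log2 signal was 5 or more were compared. Differences were called at 1.5-fold, with no test. Counts use differences rounded to 2 decimals. The calling step was run on simulated data with less noise than these arrays and changes well past the threshold. That run checks the code and says nothing of how reliable the calls on these arrays are. Python 3.11.15, numpy 2.4.6, pandas 2.3.3, matplotlib 3.10.9, R 4.3.3 and limma 3.58.1 (quantile and cyclic loess scaling only) were used. Genes of the list were all named; of other pathway genes, those past 1.5-fold, and ZWILCH, HJURP and MIS18A after their values were seen. The members, lists and alternatives were chosen with earlier results of these data known. Promoter matches and head-to-head neighbours are descriptions from RefSeq tables, and the search for neighbours was added after the differences were seen.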

Additional observations from a re-analysis of the deposited data

How the results depend on the processing

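Of 478 recomputed differences of single genes, 472 stayed on their side of 1.5-fold and 6 came to pass it, as given in the report. None dropped below it or changed sign past it. Only the 3 scalings could change a difference, because each gene had 1 probe set and a signal minimum leaves differences as they are. All 6 came from the scalings, where 67 (array medians), 68 (quantile) and 69 (cyclic loess) stayed on their side. With siH19-2, the 4 genes past 1.5-fold became 7 with each array centred on its median, which shifts every difference down. Of all compared genes, 1.92% then rose and 12.4% fell, beside 2.94% and 8.95% as deposited. At a threshold of 2-fold the 4 genes became 1 (CENPQ), and of all compared genes 0.519% rose and 2.62% fell. With siH19-1 the 2 genes became 1 with a signal minimum of 7, under which SPC24 was not compared. With means in place of medians, the inner minus outer difference with siH19-1 was 0.12 in place of -0.01. The highest inner value was CENPQ at 1.03 and the lowest outer value SPC24 at -1.65, and single values move a mean more than a median. How much these genes moved the means was not tested. Including probe sets shared with other genes, chosen after seeing the data, added the PAK6 and BUB1B probe set to the falls with siH19-2. Centring on array medians moved the median of all compared genes from -0.06 to -0.12 with siH19-1 and from -0.07 to -0.16 with siH19-2. The medians of the inner, outer, pathway, mitotic and MCM lists kept their sign under the 3 scalings. Between the signal minimum of 5 and no minimum, the calls among these genes were the same. A count of genes past 1.5-fold with both siRNAs was planned and is not reported, because the comparisons share the control array. No paired analysis was possible because each group has 1 array. No array could be left out for the same reason.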
